A study of Mus musculus with 2 samples.

Results

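The genes described here are 40 genes whose products carry cells through the G2 and M phases of the cell cycle, of 31055 features counted in both libraries, and all 40 were found in both. They were chosen by name for their known role in mitosis, with no threshold on any measured value. They were followed in endothelial cells sorted from tumors of wild-type (WT), female C57BL6 mice. The mice were aged 6 weeks when 100000 tumor cells were implanted orthotopically, and the tumors were digested 10 days later. The PyMT line, labelled PYMT, derives from a mammary tumor and grew in the mammary gland, whereas the KPC line derives from a pancreatic tumor and grew in the pancreas. Both groups shared the genotype, the age, the time point and the sort, and no untreated or tumor-free endothelium was included. Cells of both tumors were depleted of CD45, EpCAM, Ter119, podoplanin and Annexin V positive cells and sorted as endothelial, and each tumor model gave 1 droplet library. The number of mice per library was not given, and the study names both the v2 and the v3 chemistry.

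In dividing cells, cyclin-dependent kinase 1 with cyclins A and B starts mitosis, chromosomes condense, and kinetochores capture spindle microtubules. The anaphase-promoting complex then triggers both the parting of sister chromatids and the degradation of the cyclins, and the cell divides. Most of the transcripts involved are low in G1, rise through S phase and peak in G2 and M, so that a cell in these phases carries many of them together. Endothelial cells of healthy adult vessels are mostly quiescent, while growing vessels hold dividing cells. In sprouting vessels the tip cells lead and the following cells are described as the ones that divide more, and arterial specialization is described as going together with cell cycle arrest.

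The PyMT library held 12464 barcodes with 55547926 unique molecular identifiers (UMIs), each UMI standing for 1 captured transcript, and the KPC library held 10236 barcodes with 44441942 UMIs. After barcodes with under 500 genes or 10% or more mitochondrial UMIs were removed, 11744 and 9591 barcodes remained, with a median of 3978 UMIs in PyMT and 3141 in KPC. All comparisons used 2000 UMIs drawn at random from each barcode, which left out 1474 PyMT barcodes (12.6%) and 3155 KPC barcodes (32.9%) that were shallower. Barcodes were put into classes by UMIs of a few genes, in the order tumor (Krt8 and Krt18), fibroblast (Col1a1 and Col1a2), lymphatic (Mmrn1 and Prox1), pericyte (Notch3 and Higd1b), venule (Ackr1 and Selp), artery (Gja5 and Sema3g), tip (Apln and Angpt2) and capillary (Car4 and Cd300lg). The 4 blood vessel classes and the remaining barcodes with at least 2 UMIs of Pecam1 and Cdh5, called unassigned endothelial, are together called blood endothelial and numbered 8848 barcodes in PyMT and 4373 in KPC. The summed level of 6 pan-endothelial genes was between 3657 and 6441 UMIs per 1000000 UMIs of the class (CPM) in every blood class, against 460 CPM in the tumor class of PyMT and 267 CPM in that of KPC. In PyMT, 1 of 6 epithelial markers was at 0 in the tumor class and the summed level of the 6 was 2231 CPM, lower than the 11311 CPM in KPC, so the name tumor there rests on the 2 genes of the rule more than on the other markers. The libraries shared 151 kept barcode sequences. With 1 library per tumor model there was no replicate, no test was made between libraries or classes, and library and tumor model cannot be told apart. The intervals given cover counting error only, and since the UMIs of these genes came together in the same cells, they understate the spread of summed counts.

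Promoters of mitotic genes are known to carry CCAAT boxes, bound by NF-Y, and cell cycle homology elements with the core TTTGAA or TTTAAA, through which the DREAM complex and B-MYB with FOXM1 act. In the RefSeq promoter table (GRCm38.p6, 250 bases before to 50 bases after a start, the first listed start of each gene), 34 of the 40 genes were matched by symbol, and Ccna2, Aurkb, Tpx2, Cdca2, Smc4 and Pimreg were not. The letters CCAAT, read on both strands, were in 26 of 34 promoters (76.5%), against 37.9% of all 27025 genes in the table. TTTGAA or TTTAAA, also on both strands and counted apart from CCAAT, was in 29 of 34 (85.3%), against 27.8% of all genes. Both were in 24 of 34 (70.6%), against 10.9% of all genes, 26 of 47 promoters (55.3%) of other mitosis genes and 5 of 31 (16.1%) of DNA replication genes. The TTTGAA or TTTAAA letters lay within 50 bases of the start in 25 of 34 promoters, against 8.24% of all genes. Shown here are the 150 bases just before the start, on the gene's own strand from 5′ to 3′, for genes of several roles that the results turn on, with both motifs in capitals (ATTGG and TTCAAA where the match is on the other strand), and for Tacc3, which held neither. The stretches are Cdk1 chr10:69352913-69353062 (minus strand), Cdc20 chr4:118437344-118437493 (minus strand), Plk1 chr7:122159285-122159434 (plus strand), Kif11 chr19:37376232-37376381 (plus strand), Top2a chr11:99024190-99024339 (minus strand), Mki67 chr7:135716380-135716529 (minus strand) and Tacc3 chr5:33657978-33658127 (plus strand).
Cdk1: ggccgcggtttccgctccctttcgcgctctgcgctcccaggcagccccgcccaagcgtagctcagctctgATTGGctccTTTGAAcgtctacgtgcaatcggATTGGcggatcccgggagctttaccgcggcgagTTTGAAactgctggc
Cdc20: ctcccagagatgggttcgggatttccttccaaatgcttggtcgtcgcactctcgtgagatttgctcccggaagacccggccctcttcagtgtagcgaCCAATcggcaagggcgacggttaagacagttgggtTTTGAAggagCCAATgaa
Plk1: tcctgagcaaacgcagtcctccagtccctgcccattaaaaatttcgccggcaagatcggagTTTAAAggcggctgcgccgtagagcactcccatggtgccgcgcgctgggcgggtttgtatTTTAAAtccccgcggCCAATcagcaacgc
Kif11: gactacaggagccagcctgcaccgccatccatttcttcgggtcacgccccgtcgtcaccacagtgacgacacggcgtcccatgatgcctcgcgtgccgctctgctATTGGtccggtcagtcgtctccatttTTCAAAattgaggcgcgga
Top2a: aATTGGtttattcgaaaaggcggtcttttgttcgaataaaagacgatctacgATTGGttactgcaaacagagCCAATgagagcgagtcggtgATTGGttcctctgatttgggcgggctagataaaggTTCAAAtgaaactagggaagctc
Mki67: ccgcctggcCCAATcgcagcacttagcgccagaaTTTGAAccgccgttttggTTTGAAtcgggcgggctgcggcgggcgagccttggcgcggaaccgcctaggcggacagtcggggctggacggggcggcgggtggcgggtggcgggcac
Tacc3: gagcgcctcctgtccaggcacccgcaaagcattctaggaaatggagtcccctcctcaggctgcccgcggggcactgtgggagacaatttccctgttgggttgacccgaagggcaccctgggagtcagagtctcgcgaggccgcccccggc

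Top2a held 6 matches of CCAAT in the 300 bases, counting both strands and overlaps, the most together with Ube2c, and Cdk1 held 3 with 2 of the second motif. A match of letters is a description and no evidence of binding in these cells.

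The 40 genes made up 0.219% of all UMIs in kept PyMT barcodes and 0.211% in kept KPC barcodes. In blood endothelial barcodes their summed level was 1854 CPM (95% exact Poisson interval 1834 to 1874) in PyMT and 1765 CPM (1737 to 1793) in KPC. These transcripts were not spread evenly over cells. In PyMT, 3609 of 8848 blood endothelial barcodes (40.8%) had none of them among 2000 UMIs, and 2041 barcodes had 5 or more and held 83.6% of all these UMIs, with a median of 12 and a highest value of 54 per barcode. In KPC, 2075 of 4373 (47.5%) had none, and 872 barcodes with 5 or more held 86.0%, with a median of 13 and a highest value of 65. Barcodes with 5 or more are called rich in mitosis transcripts below. This is a range of a sum and not a cell type, and 261 PyMT and 67 KPC barcodes had 4 such UMIs, just under it, while 187 and 70 had 5. Before the draw, rich barcodes were deeper, with a median of 5658 UMIs against 4067 in the other blood endothelial barcodes of PyMT and 5966 against 3848 in KPC.

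**Figure D1:**
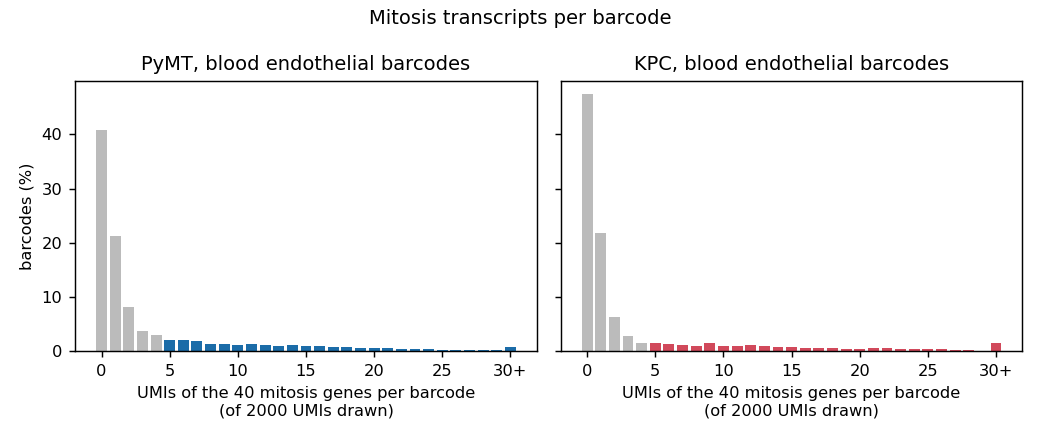
Number of UMIs of the 40 mitosis genes (horizontal axis) among 2000 UMIs per blood endothelial barcode, as a percent of barcodes (vertical axis), in PyMT (left) and KPC (right), with grey bars under 5 UMIs, colored bars from 5 on and the last bar holding 30 or more. Barcodes with 0 made up 40.8% in PyMT and 47.5% in KPC, and a long tail reached 54 and 65 UMIs.

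Among cyclins, Cdk1 and the genes that turn cyclins over, Ube2c, the ubiquitin-conjugating enzyme of the anaphase-promoting complex, was highest in PyMT, and Cdk1 in KPC. Ube2c was at 138 CPM (132 to 143) in PyMT blood endothelium and 128 CPM (121 to 136) in KPC. Across PyMT classes it went from 23.4 CPM in artery to 216 CPM in tip, and across KPC classes from 59.7 CPM in artery to 161 CPM in tip. Cdk1, the kinase that starts mitosis, was at 121 CPM (116 to 126) in PyMT and 136 CPM (129 to 144) in KPC, and was lowest in artery (14.0 and 97.0 CPM) and highest in tip (189 and 158 CPM). Ccnb2, a cyclin B, was at 95.1 CPM (90.6 to 99.8) in PyMT and 64.5 CPM (59.3 to 70.0) in KPC. Its log2 ratio of PyMT over KPC, 0.56 (0.42 to 0.70), was the largest of all 40. Cdc20, which activates the anaphase-promoting complex, was at 68.8 and 57.7 CPM, cyclin A2 (Ccna2) at 55.8 and 48.5 CPM, cyclin B1 (Ccnb1) at 43.7 and 31.4 CPM and Cdca3, a trigger of mitotic entry, at 41.0 and 33.8 CPM, in PyMT and KPC. 6 of these 7 genes had an interval of the PyMT over KPC ratio wholly above 0, and Cdk1 had one wholly below 0. Of all 11862 genes tested, 1748 had one above 0 and 4163 below.

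The mitotic kinases were low throughout, together at 93.1 CPM in PyMT and 100 CPM in KPC. Plk1, which drives centrosome maturation and mitotic entry, was at 28.4 CPM (25.9 to 31.0) in PyMT and 26.4 CPM (23.1 to 30.0) in KPC. It was lower in venule than in capillary in both libraries, at 12.3 against 32.5 CPM in PyMT, a log2 ratio of -1.41 (-2.74 to -0.33), and 13.1 against 31.0 CPM in KPC, a log2 ratio of -1.24 (-2.24 to -0.32), each from 7 and 14 venule UMIs. Aurkb, the kinase of the chromosomal passenger complex, was at 25.4 CPM (23.1 to 27.9) and 30.3 CPM (26.8 to 34.2). Aurka, the spindle pole kinase, was at 17.6 CPM (15.7 to 19.7) and 22.8 CPM (19.7 to 26.1), and no UMI of it was drawn in the artery class of either library. In these small classes 3 UMIs would be 14.0 CPM in PyMT and 22.4 CPM in KPC, so that a level like that of capillary (21.1 and 18.4 CPM) is hardly resolved. The checkpoint kinases Bub1 (14.4 and 12.5 CPM) and Ttk (7.23 and 8.35 CPM) were lower still.

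The kinetochore and centromere genes gave the largest share of these UMIs in PyMT, 31.8%, and 27.7% in KPC. Birc5 (survivin), a subunit of the chromosomal passenger complex, was the highest of all 40 genes in PyMT, at 168 CPM (162 to 174), and followed Cdk1 and Smc4 in KPC, at 132 CPM (125 to 140). Cenpa, the centromeric histone H3 variant, was at 133 CPM (128 to 139) in PyMT and 100 CPM (93.6 to 107) in KPC, and Cdca8 (borealin), another passenger subunit, at 75.4 CPM (71.4 to 79.6) and 57.4 CPM (52.5 to 62.6). All 3 were lowest in the artery class of PyMT, at 28.0, 65.4 and 9.35 CPM. Cenpf was at 55.5 and 48.8 CPM, the kinetochore motor Cenpe at 47.5 and 36.7 CPM, Hjurp, the chaperone that places Cenpa, at 47.5 and 50.1 CPM, Sgo2a, a protector of cohesin, at 30.0 and 26.5 CPM, and the outer kinetochore subunits Nuf2 and Ndc80 at 17.7 and 15.7 CPM in PyMT and 18.2 and 19.0 CPM in KPC.

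Hjurp behaved unlike the others in several respects. In barcodes with 5 or more UMIs of the other 39 genes it was at 87.4 CPM in PyMT and 98.4 CPM in KPC, and in barcodes with none of them it was still at 35.3 and 38.1 CPM, a log2 ratio of 1.31 and 1.37. For the 40 genes, each set against the sum of the other 39, the median of this log2 ratio was 5.39 in PyMT and 6.02 in KPC, and Hjurp was the lowest in both. Smc4 came next, with 2.76 and 2.89, since it was at 44.9 and 57.8 CPM in barcodes without the other 39. Ube2c, in contrast, fell from 533 to 12.7 CPM in PyMT and from 602 to 6.89 CPM in KPC. Hjurp was also higher in the lymphatic class than in blood endothelium, at 105 against 47.5 CPM in PyMT, a log2 ratio of 1.15 (0.84 to 1.45), and at 114 against 50.1 CPM in KPC, a log2 ratio of 1.18 (0.90 to 1.46). It was the only one of the 40 genes more than 2-fold higher in the lymphatic class of PyMT, where 11.5% of all genes tested were, and besides it only Cenpf was in KPC, at 111 against 48.8 CPM, where 8.91% of all genes were. The direction itself was not particular to Hjurp, with 25 of 40 genes above 0 in PyMT and 34 of 40 in KPC. The medians were 0.21 and 0.29. Of all genes tested, 6405 of 11388 and 5628 of 10938 lay above 0. Hjurp lies at chr1:88262471-88277633 on the minus strand (GRCm38, GENCODE M21), where no other counted gene shares bases with it.

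Among the spindle genes, Tpx2, which activates Aurka on the spindle, was at 44.0 CPM (40.9 to 47.2) in PyMT and 39.7 CPM (35.6 to 44.1) in KPC. Hmmr, a microtubule-binding receptor of hyaluronan, was at 30.8 CPM (28.3 to 33.5) and 28.8 CPM (25.4 to 32.6), and Tacc3, which cross-links spindle fibers, at 32.4 CPM (29.8 to 35.1) and 29.5 CPM (26.0 to 33.3). The kinesins Kif22, Kif20b, Kif2c and Kif11, the microtubule binders Nusap1, Ckap2 and Ckap2l, and Gtse1 lay between 5.09 CPM (Gtse1) and 30.7 CPM (Kif22) in PyMT and between 4.34 CPM (Gtse1) and 34.3 CPM (Kif22) in KPC. Kif11, the motor that pushes spindle poles apart, was lower in PyMT than in KPC, 10.5 against 14.7 CPM, a log2 ratio of -0.50 (-0.83 to -0.16).

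Of the cytokinesis genes, Kif23, a subunit of centralspindlin, was at 22.9 CPM (20.8 to 25.3) in PyMT and 32.4 CPM (28.7 to 36.4) in KPC, a log2 ratio of -0.50 (-0.72 to -0.27). Anln (anillin), which organizes the contractile ring, was at 17.7 CPM (15.8 to 19.8) and 17.6 CPM (14.9 to 20.6), and Ect2, which activates RhoA at the cleavage furrow, at 9.44 CPM (8.06 to 10.98) and 9.83 CPM (7.87 to 12.1). Anln and Ect2 were among the genes that differed most between the capillary classes of the libraries, at 17.3 against 7.54 CPM and 8.87 against 4.19 CPM in PyMT and KPC, from 9 and 5 KPC UMIs.

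Of the genes of chromosome structure, Smc4, a condensin subunit, was at 112 CPM (107 to 117) in PyMT and 136 CPM (129 to 144) in KPC, where it equalled Cdk1 as the highest of all 40. Top2a, the topoisomerase that untangles sister chromatids, was at 95.6 CPM (91.1 to 100) and 105 CPM (98.5 to 112), and Mki67, the source of the Ki-67 antigen, at 46.5 CPM (43.3 to 49.7) and 49.97 CPM (45.4 to 54.9). Pimreg was at 43.5 and 42.5 CPM, and Cdca2, which recruits a phosphatase to chromatin, at 9.10 and 11.1 CPM. Of the endothelial classes Top2a was highest in lymphatic, at 152 CPM in PyMT and 185 CPM in KPC. In PyMT artery it was at 23.4 CPM but in KPC artery at 104 CPM, from 67 barcodes of which 7 were rich. Library preparation captured the 3′ ends of transcripts, so these levels do not scale with gene length.

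**Figure D2:**
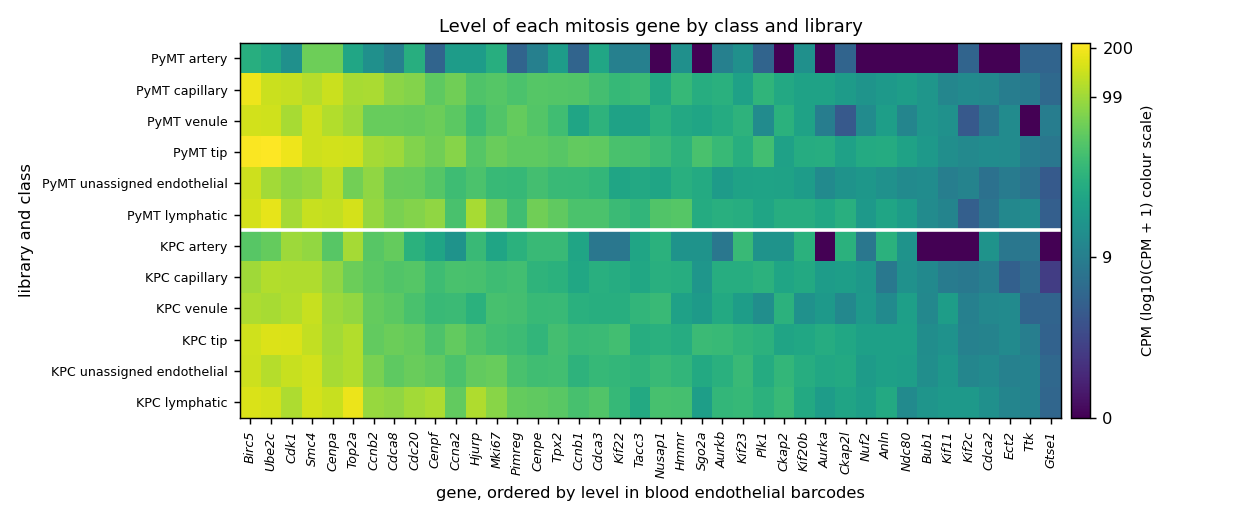
Level of each of the 40 genes (columns, ordered by level) in 6 classes of each library (rows), as CPM on a log10(CPM + 1) color scale from dark (0) to yellow (about 200). The artery row of PyMT is dark, with 11 genes at 0 UMIs, while the tip and capillary rows are bright for the same genes from Birc5 to Top2a in both libraries.

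The 40 genes lie on 16 chromosomes, at most 6 on 1 chromosome (chromosome 2). In GENCODE M21, 9 of them share bases with a gene of the other strand that was also counted, among them Ube2c with Tnnc2, Cdc20 with Elovl1, Ccna2 with Exosc9 and Nusap1 with Oip5. Whether the counting used strand was not stated in the sources used here.

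The share of barcodes rich in mitosis transcripts differed between vessel classes. In PyMT the artery class had the lowest share of the blood vessel classes, while in KPC artery and capillary were the lowest by a class rule on all UMIs and their order depended on the depth of the draw. In PyMT, 5 of 107 artery barcodes were rich, 4.67% (95% exact binomial interval 1.53 to 10.6), against 598 of 2367 capillary barcodes, 25.3% (23.5 to 27.1), a ratio of 0.18 (0.08 to 0.44). In KPC, 7 of 67 artery barcodes were rich, 10.4% (4.30 to 20.3), against 83 of 597 capillary barcodes, 13.9% (11.2 to 16.9), a ratio of 0.75 (0.36 to 1.56) whose interval holds 1. With 1000 UMIs drawn per barcode KPC artery lay above capillary, at 7.07% against 5.79%, and so it did with no draw, at 9.52% against 8.48%. Venule barcodes were rich in 19.6% (15.2 to 24.7) in PyMT and 19.3% (16.1 to 22.9) in KPC, tip barcodes in 32.8% (30.7 to 34.9) and 24.2% (21.8 to 26.7), and unassigned endothelial barcodes in 18.0% (16.8 to 19.2) and 19.6% (17.9 to 21.4). In blood endothelium as a whole the share was 23.1% (22.2 to 24.0) in PyMT and 19.9% (18.8 to 21.2) in KPC, a ratio of 1.16 (1.08 to 1.24). Over all kept blood endothelial barcodes, shallow ones included and without the draw, it was 30.8% and 18.2%. At least 1 UMI of the 40 genes was drawn in 59.2% of blood endothelial barcodes in PyMT and 52.5% in KPC, and still in 33.6% and 47.8% of artery barcodes. No class in these libraries is known to lack these transcripts, so a background from free RNA was not measured and single UMIs are not read as division.

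These shares rest on a class rule that reads all UMIs of a barcode, so that deeper barcodes, which rich barcodes tended to be, met a rule more often. With the same rule read on the 2000 drawn UMIs, an alternative that is in part a change of membership, 1718 PyMT and 1024 KPC barcodes moved into the unassigned endothelial class. A further 1516 and 757, not all of them from blood endothelium, then met no rule and had under 2 UMIs of Pecam1 and Cdh5. Blood endothelium itself lost 1235 barcodes and gained 155 in PyMT, and lost 538 and gained 144 in KPC. Of the barcodes then in that remainder, 27.7% in PyMT and 28.2% in KPC were rich. Blood endothelium then numbered 7768 and 3979 barcodes, and the order of some classes changed. Tip was then at 25.6% (22.4 to 29.0) and capillary at 27.3% (25.2 to 29.4) in PyMT, so that the excess of tip over capillary was no longer seen, with a ratio of 0.94 against 1.30 (1.18 to 1.42) before. In KPC tip stayed above capillary, at 17.1% (14.2 to 20.3) against 9.12% (6.32 to 12.6), a ratio of 1.87 against 1.74 (1.39 to 2.17). Venule fell to 10.3% (5.91 to 16.5) in PyMT and 8.72% (5.78 to 12.5) in KPC, and the ratio to capillary went from 0.78 to 0.38 in PyMT and from 1.39 to 0.96 in KPC. By this rule artery was lowest, at 4.55% (0.95 to 12.7) from 66 barcodes in PyMT and 5.13% (0.63 to 17.3) from 39 barcodes in KPC, where the interval holds the capillary share. The ratio of PyMT over KPC in capillary was above 1 both ways, at 1.82 (1.47 to 2.24) and 2.99. Of the KPC capillary barcodes, 700 of 1297 were too shallow for the draw, against 230 of 2597 in PyMT.

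**Figure D3:**
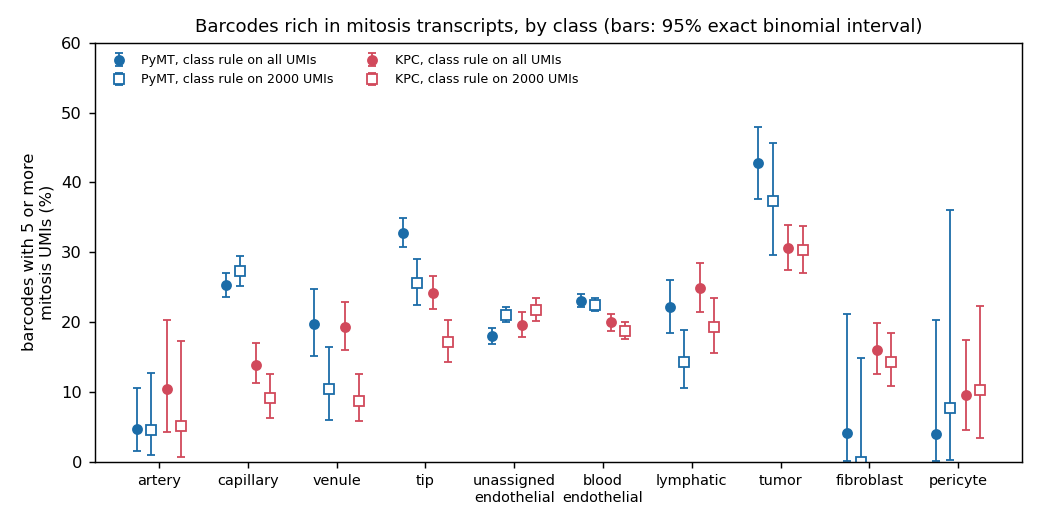
Percent of barcodes with 5 or more mitosis UMIs (vertical axis) by class (horizontal axis) in PyMT (blue) and KPC (red), with 95% exact binomial intervals as bars, for the class rule read on all UMIs (filled circles) and on the 2000 drawn UMIs (open squares). At 2000 UMIs artery is lowest of the blood vessel classes in both libraries and by both rules, though in KPC its interval holds the capillary share, and capillary is higher in PyMT than in KPC by both rules.

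Outside the blood vessels, lymphatic barcodes were rich in 22.1% (18.5 to 26.0) in PyMT and 24.9% (21.5 to 28.5) in KPC, close to or above blood endothelium, with ratios of 0.96 (0.81 to 1.14) and 1.25 (1.07 to 1.45). By the class rule on drawn UMIs PyMT lymphatic was lower, at 14.3% (10.5 to 18.9) against 22.5% (21.6 to 23.4) in blood endothelium, and KPC lymphatic was at 19.3% (15.6 to 23.4) against 18.8% (17.6 to 20.0). The tumor class had the highest share in both libraries, 42.7% (37.7 to 47.9) of 377 barcodes in PyMT and 30.6% (27.4 to 33.9) of 788 in KPC. Pericyte barcodes were rich in 1 of 25 and 9 of 94. Their class also held the 6 pan-endothelial genes, at 3020 CPM in PyMT and 2968 CPM in KPC, so it is not read as pericytes alone. Fibroblast barcodes were rich in 1 of 24 and 65 of 408. The sort was set to remove these cells, so the shares describe those that remained and not the tumor.

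Gene by gene, the 40 genes lay on one side in the PyMT artery class but on both sides in other class comparisons. A gene is called higher or lower where the ratio of CPM was at least 2-fold and at least 20 UMIs were counted over both sides. In PyMT, 33 of 40 genes were lower in artery than in capillary, against 16.2% of all genes tested. In KPC 7 of 31 were, against 17.1%, while 8 of the 31 had a log2 ratio above 0, against 3102 of all 6872. The PyMT classes held 214000 drawn UMIs in artery and 4734000 in capillary. A gene could thus reach 20 UMIs through capillary alone and be called lower from 0 artery UMIs, as 11 of the 33 were. The intervals of 23 genes lay wholly below 0 in PyMT, against 600 of all 9435 genes tested, but all 31 intervals in KPC held 0. In PyMT the median log2 ratio was -2.53, and -1.36 with the 11 genes at 0 artery UMIs set to 3 UMIs. Cdk1 had 3 artery UMIs and a log2 ratio of -3.25 (-5.53 to -1.70), Birc5 6 UMIs and -2.76 (-4.21 to -1.63), Ube2c 5 UMIs and -2.59 (-4.22 to -1.36), and Top2a 5 UMIs and -2.19 (-3.82 to -0.96). Smc4 fell least of the genes at high level in PyMT, at 65.4 CPM in artery against 119 CPM in capillary. These counts rest on 107 PyMT barcodes of which 5 were rich, and the genes are not independent of each other. With the class rule read on drawn UMIs, 34 of 39 genes were lower in PyMT, against 19.5% of all genes, and 9 of 12 in KPC, against 22.0%, where fewer genes reached 20 UMIs. In PyMT 15 of the 39 then had 0 artery UMIs, and 12 intervals lay wholly below 0, against 458 of all 8844 genes tested. The KPC artery class then held 39 barcodes, of which 2 were rich.

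Tip and capillary differed less. In PyMT no gene was 2-fold higher in tip, where 0.939% of all genes tested were. A log2 ratio above 0 was found for 35 of 40, against 5109 of all 10228 genes tested, with a median of 0.26. By the rule on drawn UMIs 12 of 40 were above 0, against 4568 of all 9401, and the median was -0.10. In KPC, Sgo2a, Anln and Ect2 were higher in tip, 3 of 39, against 4.07% of all genes. The median was 0.31, and 34 of 39 were above 0, against 4163 of all 9138 genes tested. Sgo2a went from 15.9 CPM in capillary to 38.4 CPM in tip, a log2 ratio of 1.27 (0.55 to 2.06). By the rule on drawn UMIs 5 of 32 genes were higher in KPC, against 5.47% of all genes, with a median of 0.44.

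In venule, 6 of 40 genes (Ccnb1, Plk1, Aurka, Ttk, Kif2c and Ckap2l) were lower than in capillary in PyMT, against 6.44% of all genes tested, from 0 to 13 venule UMIs each. By the rule on drawn UMIs 25 of 40 were, against 11.1%, with a median log2 ratio of -1.23 in place of -0.30. In KPC, Plk1 was lower and Kif11 higher, each 1 of 36, against 6.34% of all genes lower and 3.62% higher. A log2 ratio above 0 was found for 22 of the 36, against 3728 of all 8234 genes tested. With no draw none of the 40 genes was lower in venule in either library.

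**Figure D4:**
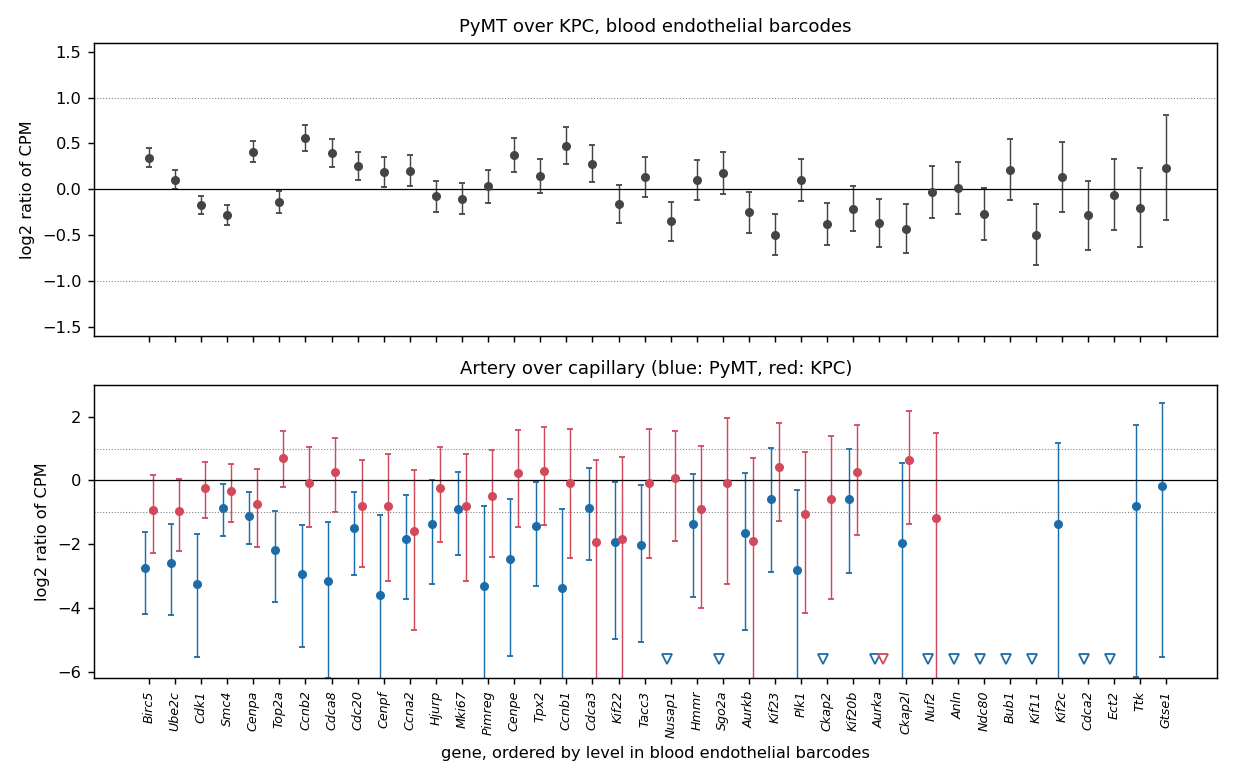
Log2 ratio of CPM (vertical axes) for each gene (horizontal axis, ordered by level), PyMT over KPC in blood endothelium (top) and artery over capillary (bottom, PyMT blue, KPC red), with 95% exact intervals as bars, some running past the axis, dotted lines at 2-fold and open triangles for genes with 0 artery UMIs. At the top all 40 genes lie between -0.50 and 0.56, and at the bottom the 29 PyMT genes with artery UMIs lie below 0.

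Between the libraries, no gene of the 40 differed by 2-fold in blood endothelium, where 2.91% of all genes tested were higher in PyMT and 8.31% lower. The median log2 ratio was 0.02, against -0.14 over all genes tested, and scaling by the median ratio of all genes with a UMI in both libraries, also those below 20 UMIs, moved it to 0.19. The intervals of 11 genes lay above 0, led by Ccnb2, Ccnb1 (0.48, 0.28 to 0.68), Cenpa (0.41, 0.30 to 0.52) and Cdca8 (0.39, 0.25 to 0.55). Those of 10 lay below 0, among them Kif11, Kif23, Ckap2l (-0.43, -0.70 to -0.17) and Smc4 (-0.28, -0.39 to -0.18). Of all 11862 genes tested, 1748 had an interval above 0 and 4163 below, so intervals below 0 were no more common among the 40. In capillary, 4 of 40 were higher in PyMT, Ccnb1, Gtse1, Anln and Ect2, against 5.10% of all genes, with a median of 0.42. Ccnb1 was at 49.0 CPM in PyMT and 23.5 CPM in KPC, a log2 ratio of 1.06 (0.49 to 1.68), while the intervals of Gtse1 and Ect2 held 0. By the rule on drawn UMIs 25 of 39 were higher in capillary, against 7.67% of all genes, with a median of 1.36. In tip no gene was higher, against 2.58% of all genes, with a median of 0.35. By the rule on drawn UMIs 5 of 36 were higher in tip, against 3.10%. Unassigned endothelial, the largest class, went the other way, with a median of -0.34 and no gene past 2-fold. There 20 of 40 intervals lay wholly below 0 and 2 above, against 3267 and 1316 of all 10925 genes tested. The median in venule was 0.16 over 35 genes. In lymphatic 1 of 39 was lower in PyMT, Kif2c with 4 against 21 UMIs, against 3.23% of all genes.

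Within blood endothelium the 40 genes rose and fell together over barcodes. All 780 pairs had a Pearson r above 0 on log counts, with a median of 0.16 over 8848 PyMT barcodes and 0.20 over 4373 KPC barcodes, which share a library and a fixed depth. The highest pair was Cdk1 with Ube2c in PyMT, r = 0.46, and Cdc20 with Ube2c in KPC, r = 0.49. Ube2c had the highest mean r with the other genes in both libraries, and Gtse1, the gene at the lowest level, had the lowest.

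DNA replication transcripts, which mark S phase, were set against the mitosis transcripts in the same barcodes. Of 40 replication genes summed, 5 or more UMIs were found in 229 of 3609 barcodes (6.35%) without mitosis UMIs in PyMT, in 22.4% of those with 1 to 4 and in 894 of 2041 (43.8%, 41.6 to 46.0) of the rich ones. In KPC the shares were 118 of 2075 (5.69%), 19.8% and 547 of 872 (62.7%, 59.4 to 65.9). Within rich barcodes each gene was set against the replication sum, and genes are given here in order of the mean r of the libraries. Top2a had the highest r, 0.32 in PyMT and 0.27 in KPC, followed by Cdk1 (0.22 and 0.17), Aurkb (0.15 and 0.15), Smc4 (0.13 and 0.09) and Mki67 (0.10 and 0.06). By the same mean Cenpa had the lowest, -0.36 and -0.39, then Ccnb2 (-0.27 and -0.28), Cdc20 (-0.22 and -0.28), Cenpf (-0.11 and -0.19) and Ccnb1 (-0.06 and -0.22). The first 3 at either end were the same in each library alone, but further in the order differed, with Birc5 (-0.12) below Cenpf and Ccnb1 in PyMT and Ttk (0.11) above Smc4 and Mki67 in KPC. Ube2c differed between the libraries, at 0.03 in PyMT and -0.20 in KPC. The other 29 genes lay between -0.15 and 0.11. Barcodes were chosen on the sum of these genes and drawn to one depth, both of which bear on the sign of r.

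**Figure D5:**
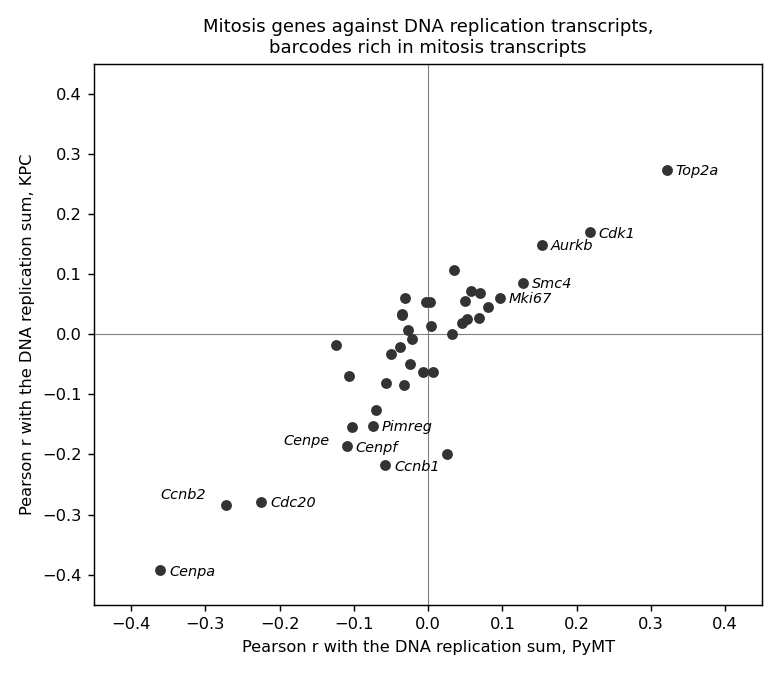
Pearson r of each of the 40 genes with the summed DNA replication genes over barcodes rich in mitosis transcripts, in PyMT (horizontal axis, 2041 barcodes) and KPC (vertical axis, 872 barcodes), 1 point per gene. Top2a lies at the upper right (0.32 and 0.27) and Cenpa at the lower left (-0.36 and -0.39), with most genes near 0.

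Other genes in rich barcodes were compared with blood endothelial barcodes of the same library that had no mitosis UMI. Of 60 further mitosis genes, 57 of 59 tested were higher in rich barcodes in PyMT and 56 of 58 in KPC, against 5.42% and 5.70% of all genes tested. This list and the lists below were drawn up with earlier results of these data known. The counts are thus descriptions and no independent evidence. The mitotic kinase Nek2 was at 27.4 CPM against 0.28 CPM in PyMT and at 27.5 CPM against 0 UMIs in KPC. Troap, a spindle protein, was at 16.4 CPM against 0 UMIs in PyMT and 19.5 against 0.24 CPM in KPC, and Espl1 (separase), which cuts cohesin, at 10.5 against 0.83 CPM and 15.5 CPM against 0 UMIs. In barcodes without mitosis UMIs 3 UMIs would be 0.42 CPM in PyMT and 0.72 CPM in KPC. Of 40 replication genes, 36 were higher in PyMT and all 40 in KPC. Thymidine kinase Tk1 was at 154 against 6.93 CPM in PyMT and 272 against 6.51 CPM in KPC, a log2 ratio of 4.47 (4.05 to 4.92) and 5.39 (4.83 to 6.00). The ribonucleotide reductase subunit Rrm2 had log2 ratios of 3.94 (3.58 to 4.31) in PyMT and 5.78 (5.10 to 6.55) in KPC.

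Of 18 genes known as inhibitors of the cycle or as genes of quiescence, 2 were higher in both libraries, the INK4 inhibitors Cdkn2c and Cdkn2d. Of all genes tested, 5.42% in PyMT and 5.70% in KPC were higher. Cdkn2c was at 58.3 against 8.73 CPM in PyMT and 134 against 14.5 CPM in KPC, a log2 ratio of 2.74 (2.33 to 3.16) and 3.21 (2.79 to 3.64). Cdkn2d was at 107 against 21.2 CPM and 176 against 35.7 CPM, a log2 ratio of 2.33 (2.06 to 2.61) and 2.30 (2.02 to 2.60). The median of the 18 was -0.27 in PyMT and -0.51 in KPC. By 2-fold, 0 of them were lower in PyMT and 1 in KPC, against 3.53% and 6.06% of all genes tested. Intervals lay wholly below 0 for 8 and 9 of the 18, and wholly above 0 for 2 in each library. Among all genes tested, 1928 of 10667 lay wholly below 0 in PyMT and 1880 of 10073 in KPC, and 2024 and 1562 wholly above.

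Artery genes were the vessel list most often lower in rich barcodes, 5 of 9 tested in PyMT and 9 of 10 in KPC, against 3.53% and 6.06% of all genes tested. Gja5, the arterial connexin 40 and part of the class rule, was at 3.92 against 21.8 CPM in PyMT and 2.29 against 16.1 CPM in KPC. Gja4, connexin 37, was at 38.2 against 144 CPM in PyMT, a log2 ratio of -1.91 (-2.17 to -1.67), and at 41.9 CPM in rich KPC barcodes, with a log2 ratio of -2.26 (-2.62 to -1.91). Of 12 venule genes 3 were lower in PyMT and 4 in KPC, among them Ackr1 and Cytl1. Ackr1, the chemokine receptor that marks venules, was at 14.9 against 42.5 CPM and 50.5 against 177 CPM. Cytl1 was at 0.49 against 3.33 CPM and 2.29 against 19.5 CPM. In rich barcodes 3 UMIs would be 0.73 CPM in PyMT and 1.72 CPM in KPC. The levels of Cytl1 there, and of Gja5 in KPC, thus rest on few UMIs. Of 15 angiogenic tip genes 3 were lower in PyMT and 4 in KPC, among them Cxcr4, at 8.08 against 26.9 CPM and 4.59 against 17.3 CPM, and Pgf, at 26.5 against 75.2 CPM and 20.6 against 43.6 CPM. The lower level of these genes in rich barcodes stands beside a share of rich barcodes in the tip class, cut on Apln and Angpt2, that was above capillary in KPC by both class rules but in PyMT only by the rule on all UMIs. Of 10 capillary genes, 0 of 9 tested were lower by 2-fold in PyMT and 1 of 9 in KPC. Smaller differences were common there, with 7 and 8 intervals wholly below 0 and 2 and 1 wholly above. Among all genes tested, 1928 of 10667 in PyMT and 1880 of 10073 in KPC lay wholly below 0. The median log2 ratio in PyMT and KPC was -0.33 and -0.66 for capillary genes. It was -0.37 and -0.63 for venule genes and -0.35 and -0.53 for angiogenic tip genes.

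Over 4480 genes found in at least 5% of blood endothelial barcodes of both libraries, the 10 whose counts followed the mitosis sum most closely, ranked by the smaller r of the libraries, were Hmgb2 (r = 0.66 in PyMT and 0.70 in KPC), H2afz (0.60 and 0.64), Pclaf (0.57 and 0.57), Cks2, Tuba1b, Stmn1, Cks1b, Smc2, Prc1 and Selenoh (0.40 and 0.42). They include chromatin proteins (Hmgb2 and the histone variant H2afz), a PCNA-binding factor (Pclaf), partners of Cdk1 (Cks2 and Cks1b), tubulin and its regulators (Tuba1b, Stmn1 and Prc1) and a condensin subunit (Smc2). Of these 10, Selenoh, H2afz and Tuba1b were not on the list of further mitosis genes. At the other end lay Malat1 (-0.29 and -0.35), Igfbp3 (-0.21 and -0.21) and Igfbp7 (-0.18 and -0.23).

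Nr2f2 encodes COUP-TFII, the venous transcription factor whose role in tumor endothelium the study examined. In PyMT blood endothelium, 153 of 623 barcodes with an Nr2f2 UMI were rich in mitosis transcripts (24.6%, 21.2 to 28.1), against 23.0% (22.0 to 23.9) of 8225 without, a ratio of 1.07 (0.93 to 1.23). In KPC, 81 of 492 with Nr2f2 were rich (16.5%, 13.3 to 20.0), against 20.4% (19.1 to 21.7) of 3881 without, a ratio of 0.81 (0.66 to 0.995). In the venule class the ratio came from fewer barcodes, 7 of 55 against 49 of 230 in PyMT (0.60, 0.29 to 1.25, and 1.09 with another random draw) and 14 of 143 against 89 of 390 in KPC (0.43, 0.25 to 0.73). With the class rule on drawn UMIs the KPC ratio was 0.74. Nr2f2 was at 39.9 CPM in rich barcodes and 38.5 CPM in those without mitosis UMIs in PyMT, and at 49.3 and 71.1 CPM in KPC. Absence of a UMI at this depth does not show absence of the transcript.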

How the data were processed

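Reads of 1 droplet library per tumor model were aligned to mm10 by the authors with Cell Ranger (3.0, and 3.0.2 in the matrix headers), and the deposited values are counts of UMIs per gene and barcode, whole numbers without normalization. Everything else was computed from these counts with Python 3.11.15, numpy 2.4.6, scipy 1.17.1, pandas 2.3.3 and matplotlib 3.10.9. Barcodes of 500 genes or more and of a mitochondrial share below 10% were kept, and each was drawn without replacement to 2000 UMIs (seed 1). Classes required Krt8 and Krt18 of at least 5 UMIs, Col1a1 and Col1a2 of 10, Mmrn1 and Prox1 of 3, Notch3 and Higd1b of 2, Ackr1 and Selp of 3, Gja5 and Sema3g of 2, Apln and Angpt2 of 3, or Car4 and Cd300lg of 2, in this order. CPM come from summed UMIs with exact Poisson intervals, log2 ratios of CPM with exact conditional binomial intervals, shares with Clopper-Pearson intervals and ratios of shares with log intervals, each at 95% and covering nothing but counting error. A share without any count would be given with a floor of 3 counts. Genes with at least 20 UMIs over both sides were called at 2-fold, and p-values were not computed. No doublet caller was run, and leaving out barcodes that met 2 or more class rules was tried in its place. The code was tested on simulated counts.

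The 3 genes of each role with the most UMIs, the 3 highest and 2 lowest genes of each list changed 2-fold in both libraries, and the 10 genes most like the mitosis sum are given with full values. Of the genes this rule names, 1 is not reported here. The genes and lists were chosen with earlier results of these data known. Alternatives were the depth of the draw, its seed, the cut of 5 UMIs, the gene and mitochondrial limits, the scaling, the filter on low genes, the class rule on drawn UMIs and the sum without Top2a and Mki67. The class rule on drawn UMIs was applied to gene levels, other genes and Nr2f2 only after the data had been seen.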

Additional observations from a re-analysis of the deposited data

Results flagged for a closer look

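The ratio of the share of barcodes rich in mitosis transcripts in venule over capillary was 0.78 in PyMT and 1.39 in KPC, on opposite sides of 1, and this difference between the tumor models was not tested, since each has 1 library. With the class rule read on the 2000 drawn UMIs the ratios were 0.38 and 0.96, no longer on opposite sides. Venule shares themselves were alike in both libraries, at 19.6% and 19.3%, and capillary shares were 25.3% and 13.9%.

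Barcodes that failed the filter on genes or mitochondrial UMIs entered no comparison. Of those with at least 2000 UMIs, 28 of 67 in PyMT (41.8%, 29.8 to 54.5) and 5 of 41 in KPC (12.2%, 4.08 to 26.2) were rich in mitosis transcripts, against 23.4% (22.6 to 24.3) and 21.1% (20.1 to 22.1) of the kept barcodes. The PyMT share was above that of kept barcodes, and the KPC interval holds the share of kept barcodes. Their median mitochondrial share was 12.1% in PyMT and 12.6% in KPC.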

How the results depend on the processing

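No paired analysis was possible because each tumor model had 1 library, and none could be left out. Each main value was counted once for every setting it was tried under, so the same value can stand in more than 1 of these counts. In 165 such entries it moved by less than its counting interval or by less than 1.5 times, and in 42 it moved further. In 2, whose interval lay on one side of 1, it changed direction. Besides these, 2 ratios whose interval holds 1 crossed it, artery over capillary in KPC at 1.22 with 1000 UMIs and 1.12 with no draw, and the Nr2f2 ratio in PyMT venule at 1.09 with the second seed. Under the class rule on drawn UMIs, where it was added after the data were seen, 15 moved less and 6 further. In the order PyMT and KPC, the rich share of blood endothelium was 13.9% and 10.3% with 1000 UMIs drawn, 30.6% and 27.1% with 3000, 30.8% and 18.2% with no draw, 29.8% and 24.4% with a limit of 3 mitosis UMIs and 14.4% and 13.4% with 10, and in PyMT 21.9% without Top2a and Mki67 and 21.5% without barcodes of 2 or more class rules. The ratio of PyMT over KPC in blood endothelium was 1.35 at 1000 UMIs, 1.69 with no draw and 1.07 with a limit of 10, and in capillary 2.70 at 1000 UMIs, 1.41 at 3000, 4.19 with no draw, 1.39 with a limit of 10 and 2.99 with the class rule on drawn UMIs. In KPC, tip over capillary was 2.49 at 1000 UMIs, 1.32 at 3000 and 4.06 with no draw, and venule over capillary 2.51 with no draw and 1.03 with a limit of 10. With the class rule on drawn UMIs, venule over capillary was 0.96 in KPC and 0.38 in PyMT, tip over capillary in PyMT was 0.94 with a median log2 ratio of -0.10 over the 40 genes, and the Nr2f2 ratio in KPC venule was 0.74. By that rule 25 of the genes were higher in PyMT capillary and 5 in PyMT tip than in KPC, 25 were lower in venule than in capillary of PyMT, 5 were higher in tip than in capillary of KPC, and 2 angiogenic tip genes were lower in rich KPC barcodes. Without barcodes of 2 or more class rules, tip over capillary in PyMT was 1.10, PyMT over KPC in tip 1.17, and 11 genes in PyMT and 3 in KPC were lower in venule. With no draw, 0 genes were higher in PyMT capillary than in KPC, 0 were lower in venule in PyMT and 0 in KPC, 1 was higher in tip in KPC, 8 artery genes were lower in rich PyMT barcodes and 0 angiogenic tip genes in rich KPC barcodes. Median ratio scaling gave 7 genes higher in PyMT capillary, limits of 1000 genes and 5% mitochondrial UMIs gave 2, with 2 lower in venule and 11 in artery of KPC, and no filter on low genes gave 11 lower in artery of KPC. The median r between genes in PyMT was 0.21 at 3000 UMIs. For the draw and the class rule, the barcodes that enter each class differ by construction, and for the other settings the cause was not tested. Artery was compared on 107 and 67 barcodes, which limits the genes that can be called there.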

Other observations

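Beyond the 10 genes closest to the mitosis sum, the next 10 among 4480 genes in blood endothelium were Ube2s, H2afx, Hist1h2ap, Tubb5, Hmgn2, Ran, Ptma, Hmgb1, Racgap1 and Tubb4b, chosen for naming after their values were seen. They hold histones and chromatin proteins (H2afx, Hist1h2ap, Hmgn2 and Hmgb1), tubulins (Tubb5 and Tubb4b), Ube2s, which extends ubiquitin chains for the anaphase-promoting complex, and Ran, the GTPase of nuclear transport and spindle assembly. The histone gene Hist1h2ap was at 233 CPM in rich barcodes against 2.36 CPM in those without mitosis UMIs in PyMT, and at 142 against 0.96 CPM in KPC. Tubb5 differed less, at 2095 against 945 CPM in PyMT and 2371 against 824 CPM in KPC.

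At the low end lay Sat1, Sparcl1, Ftl1, Nfkbia, Plk2, Itm2b and Mxd4 after the 3 genes already named. Malat1, a nuclear noncoding RNA, was at 4991 CPM in rich barcodes against 9329 CPM in PyMT and at 5158 against 11403 CPM in KPC. Mxd4, a partner of Max that opposes Myc, was at 37.2 against 120.0 CPM in PyMT and 51.6 against 137 CPM in KPC, and Igfbp3 was at 1091 against 2417 CPM and 547 against 1741 CPM. All of these are levels relative to the 2000 UMIs drawn from each barcode, so that a gene can be lower where others take more of the draw.

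Blood endothelial barcodes that met 2 or more class rules were rich in mitosis transcripts in 35.5% (32.6 to 38.6) of 993 in PyMT and 28.3% (23.5 to 33.5) of 329 in KPC, against 21.5% and 19.3% of those that met fewer. Among blood endothelial barcodes too shallow for the draw, 372 of 974 in PyMT (38.2%) and 602 of 2211 in KPC (27.2%) had at least 1 UMI of the 40 genes.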
